A study of Mus musculus with 6 samples.

Results

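The genes examined here are 9 components of pre-B cell receptor (pre-BCR) signalling: the receptor chains Cd79a and Cd79b, the kinases Syk, Lyn, Blk and Btk, the adaptor Blnk, the phospholipase gene Plcg2 and the lipid kinase gene Pik3cd. They were selected by gene symbol, and all 9 were found among the 49997 symbols of the count table. They were measured in small pre-B cells, late B-cell precursors that rearrange their light chain genes, sorted by flow cytometry from mouse bone marrow. The WT group was wild-type C57BL/6 mice and the ΔrsCBE group carried the deletion that gives that genotype its name, with ages of 6 to 12 weeks stated for the series and no treatment named for either group. The sequence removed by the deletion is not named in the labels. Each genotype had 3 libraries of total RNA depleted of ribosomal RNA. The labels do not say that the libraries came from separate animals, so the tests measure the spread between these libraries, which may be partly technical.

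The pre-BCR pairs an immunoglobulin mu heavy chain with the surrogate light chain and sits on the Cd79a-Cd79b heterodimer, which carries the signal into the cell. Src family kinases such as Lyn and Blk phosphorylate tyrosines in the cytoplasmic tails of both chains, Syk docks there and phosphorylates the adaptor Blnk, and Blnk brings Btk to phospholipase C gamma 2, the product of Plcg2. The catalytic subunit p110 delta, encoded by Pik3cd, makes the membrane lipid that recruits Btk and AKT. In early pre-B cells this pathway drives a burst of division, and its Syk-Blnk-Btk branch is known for ending that burst and for favouring rearrangement of the kappa locus.

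The tyrosines that start the cascade lie in a single short motif of each chain, the immunoreceptor tyrosine-based activation motif (ITAM). The coding stretches of the motif are shown because these chains form 1 signalling unit and their proportion is compared below. Both were read 5′ to 3′ on the coding strand of GENCODE M21 transcripts (build GRCm38), and the capitals mark the tyrosine codons.
Cd79a: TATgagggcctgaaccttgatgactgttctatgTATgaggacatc
Cd79b: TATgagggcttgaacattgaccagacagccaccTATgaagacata
The Cd79a stretch lies within chr7:24901296-24901469 on the plus strand and is split between exons 4 and 5 of 5. The Cd79b stretch lies within chr11:106311867-106312012 on the minus strand and is split between exons 5 and 6 of 6. Each holds 2 tyrosine codons in 45 bases, and 31 of the 45 bases (68.9%) are the same in both.

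Total counts ranged from 428106 to 1300805 per library, and the 9 genes together took 3550 to 10250 counts. Levels are given as CPM, the counts of a gene relative to the size of its library after TMM scaling, for which 3 counts, taken as the floor, equal 2.38 to 7.36 CPM. Markers of the labelled cell type were present in all libraries, with Pax5 at 2811 to 3651 CPM, Rag1 at 2583 to 3809 CPM and Il2ra, which encodes CD25, at 652 to 788 CPM. No more than 7.36 CPM was seen for Igll1, Vpreb1, Dntt or Kit, markers of earlier stages. Il7r, listed as a marker both of those stages and of small pre-B cells, had 424 to 542 CPM. ΔrsCBE replicates 2 and 3 had the RNA pattern of females (Xist at 1657 and 1806 CPM, Y-linked genes at 0), and the other 4 libraries that of males. Sex and genotype are therefore partly confounded, and the comparison within males is 3 WT libraries against ΔrsCBE replicate 1.

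None of the 9 genes passed the threshold for a difference between the genotypes, which was 0.05 for p-values from the quasi-likelihood test of edgeR, adjusted by Benjamini and Hochberg's method over the 7792 genes tested. The smallest adjusted p-value among them was 0.447. DESeq2's Wald test also called 0 of the 9. At an unadjusted p-value under 0.05 edgeR had 3 of the 9 genes (Btk and Blnk with higher values in ΔrsCBE, Cd79a with lower ones) and DESeq2 had 0. Over all tested genes, edgeR called 1.69% at the adjusted threshold (0.205% higher and 1.49% lower in ΔrsCBE) and 10.2% at the unadjusted one (4.22% higher and 6.02% lower). The 95% intervals of the 9 fold changes all lay between 0.721-fold and 1.52-fold. Larger differences in either direction are thus outside the intervals, whereas smaller ones were not resolvable at this depth and number of libraries. In bulk RNA, fewer cells of a type and less RNA per cell cannot be told apart.

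**Figure D1:**
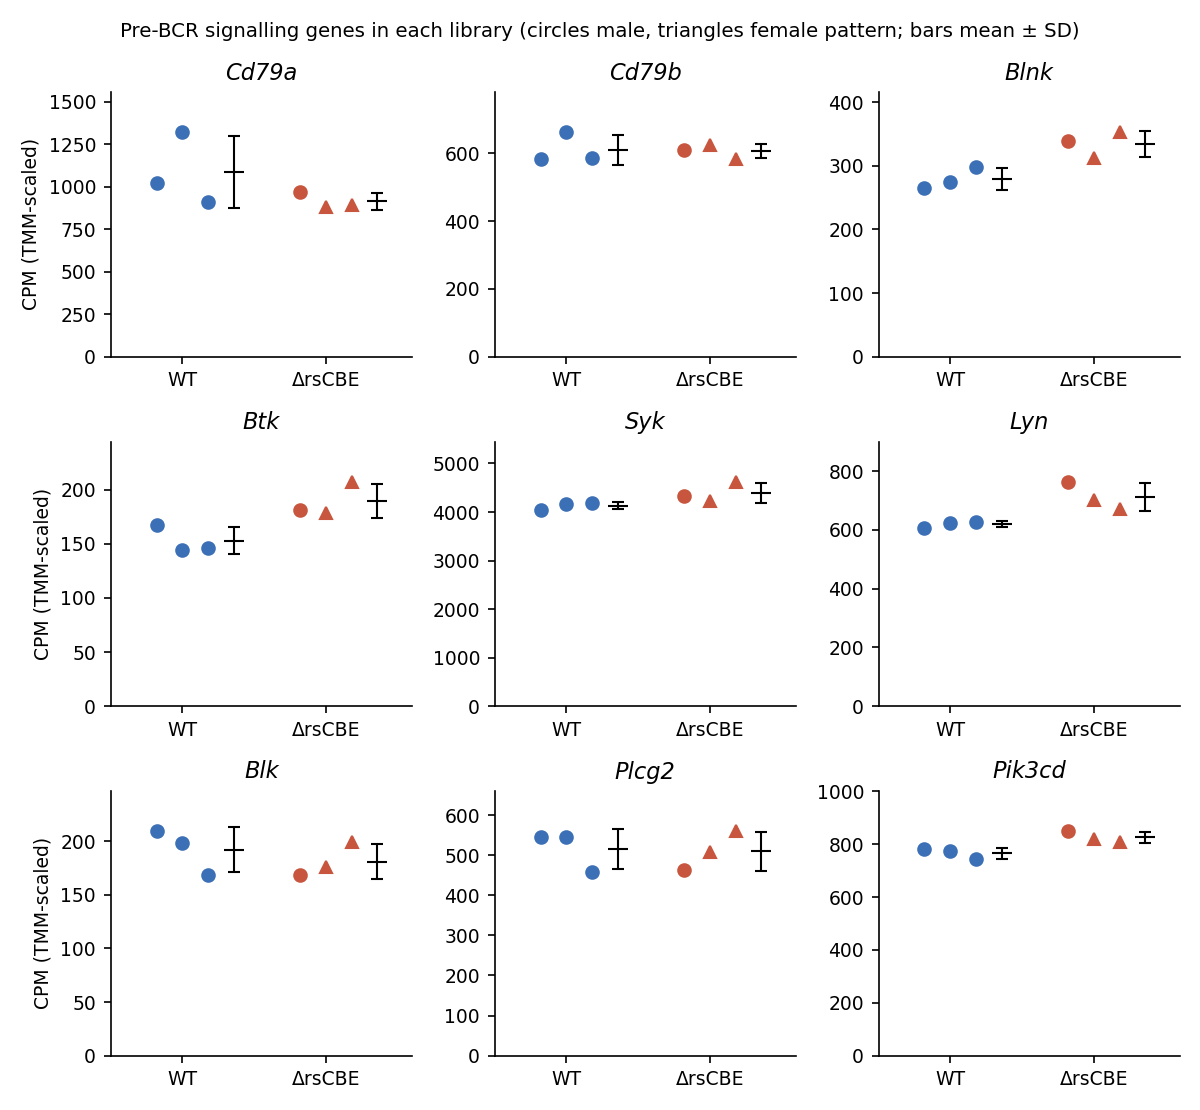
CPM of each of the 9 genes (vertical axes from 0) in the 3 WT (blue) and 3 ΔrsCBE (red) libraries; circles are libraries of male and triangles of female pattern, and black bars give the mean ± SD of each genotype. Cd79a has 1 high WT library at 1319 CPM, while the Blnk, Btk, Syk, Lyn and Pik3cd values of the genotypes do not overlap.

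Cd79a (chromosome 7, 24897381 to 24902197, plus strand, GENCODE M21 on GRCm38) encodes Ig alpha. It had 1022, 1319 and 909 CPM in the WT libraries, in replicate order, against 971, 877 and 890 CPM in the ΔrsCBE libraries. WT replicate 2, the library with the fewest counts, stood above the other 5, and the groups overlapped. The WT mean was 1083 ± 212 CPM and the ΔrsCBE mean 913 ± 50.6 CPM (SD, n = 3), for a log2 fold change of -0.24 ± 0.11 (SE; adjusted p = 0.483, edgeR). Without WT replicate 2 the log2 fold change was -0.072.

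Cd79b (chromosome 11, 106311341 to 106314762, minus strand) encodes Ig beta, the partner chain. WT libraries had 582, 662 and 585 CPM of it, ΔrsCBE libraries 610, 624 and 585 CPM. WT replicate 2 was again the highest library, and all ΔrsCBE values lay inside the WT range. With means of 610 ± 45.2 and 606 ± 19.99 CPM (SD, n = 3), the log2 fold change was -0.0023 with a 95% interval of -0.22 to 0.21 (adjusted p = 0.999, edgeR).

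Since the chains work as a pair, the share of Cd79a in the counts of both was compared next. In the WT libraries, again in replicate order, this share came to 63.7% (60.7% to 66.6%, 95% Wilson interval), 66.6% (63.3% to 69.8%) and 60.8% (58.6% to 63.0%). The ΔrsCBE libraries had 61.4% (58.7% to 64.0%), 58.4% (55.9% to 60.9%) and 60.4% (57.5% to 63.1%). WT replicates 1 and 2 had the highest shares, and WT replicate 3 lay between ΔrsCBE replicates 1 and 3. The means were 63.7% ± 2.87 and 60.1% ± 1.51 (SD, n = 3), so ΔrsCBE differed from WT by -3.64 percentage points (exact permutation test, two-sided, p = 0.2), and 0.1 is the smallest p that 3 against 3 allows. Leaving out single libraries gave differences from -5.08 to -2.20 percentage points. The intervals cover counting error only. They may be too narrow even for that, since PCR reads that lack molecular identifiers can copy the same molecule.

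**Figure D2:**
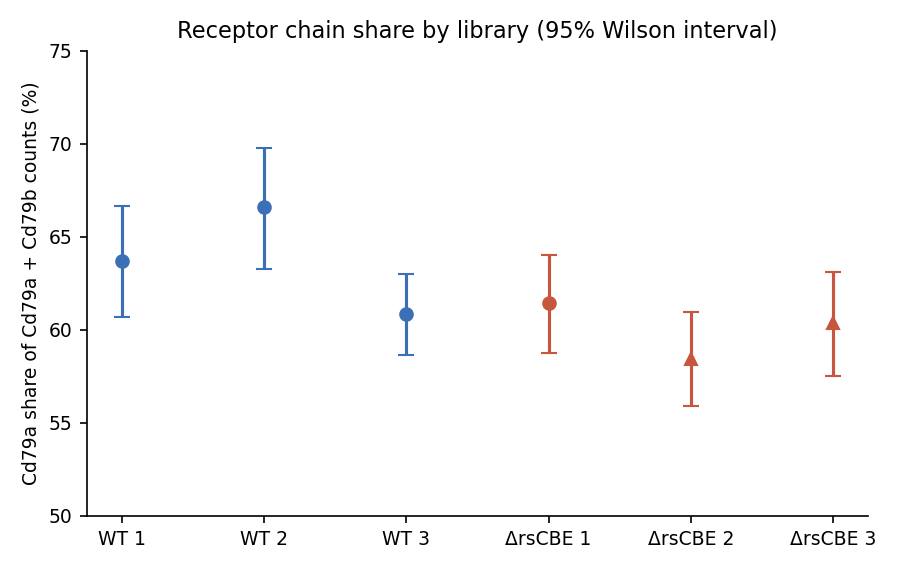
Share of Cd79a in the summed Cd79a and Cd79b counts (percent, axis from 50 to 75) in each library, with 95% Wilson intervals; blue is WT, red ΔrsCBE, triangles are libraries of female pattern. The shares run from 58.4% to 66.6%, and WT replicate 3 (60.8%) lies among the ΔrsCBE libraries.

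Syk (chromosome 13, 52583173 to 52648792, plus strand), the kinase that docks on the phosphorylated ITAMs, took more counts than any other gene of the 9. It had 4051, 4164 and 4182 CPM in WT and 4336, 4227 and 4621 CPM in ΔrsCBE. Every ΔrsCBE library lay above every WT library, by at least 45.0 CPM. Against means of 4132 ± 70.9 and 4395 ± 204 CPM (SD, n = 3) the log2 fold change was 0.089 ± 0.082 (SE; adjusted p = 0.790, edgeR).

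Lyn (chromosome 4, 3678115 to 3813122, plus strand) encodes a Src family kinase with an activating part at the ITAMs and an inhibitory one through receptors such as CD22. Its values were 608, 625 and 626 CPM in WT and 764, 702 and 671 CPM in ΔrsCBE. The WT libraries were tightly grouped, and the ΔrsCBE libraries were all higher, the male replicate 1 the most. Means of 620 ± 10.1 and 712 ± 47.4 CPM (SD, n = 3) gave a log2 fold change of 0.20 ± 0.10 (SE; adjusted p = 0.529, edgeR). The gene overlaps 4 annotated genes on the opposite strand, of which 2 were analysed here and had 1 and 0 counts over all libraries.

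Blk (chromosome 14, 63372836 to 63417037, minus strand), a Src family kinase largely restricted to the B lineage, measured 209, 199 and 169 CPM in the WT libraries against 168, 176 and 200 CPM in the ΔrsCBE ones. The groups overlapped almost completely, and the ranges were of similar width. The log2 fold change was -0.068 with a 95% interval of -0.36 to 0.22 (adjusted p = 0.936, edgeR).

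Btk (chromosome X, 134542336 to 134583570, minus strand), the Tec family kinase whose loss blocks B-cell development in human X-linked agammaglobulinaemia, measured 167, 145 and 147 CPM in the WT libraries against 182, 179 and 207 CPM in the ΔrsCBE ones. The groups did not overlap, with 11.7 CPM between the highest WT and the lowest ΔrsCBE library. Its means were 153 ± 12.5 and 189 ± 15.6 CPM (SD, n = 3), and the log2 fold change of 0.31 (SE 0.14; adjusted p = 0.447, edgeR) was the highest of the 9 genes. Btk is X-linked, and the male ΔrsCBE library, at 182 CPM, lay above the 3 male WT libraries and between the female ones. The male libraries alone, 1 ΔrsCBE library against 3, gave a log2 fold change of 0.25. Btk shares its interval with Gm15154 on the opposite strand, which was not analysed here.

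Blnk (chromosome 19, 40928927 to 40994535, minus strand) encodes the scaffold that joins Syk to Btk and phospholipase C. It had 264, 275 and 298 CPM in WT and 339, 312 and 352 CPM in ΔrsCBE. Again no ΔrsCBE library fell within the WT range, with a gap of 14.4 CPM. The means were 279 ± 17.1 and 334 ± 20.5 CPM (SD, n = 3), a log2 fold change of 0.25 ± 0.12 (SE; adjusted p = 0.467, edgeR).

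Plcg2 (chromosome 8, 117498291 to 117635142, plus strand), which encodes the enzyme that releases the calcium-mobilising second messenger, measured 545, 544 and 459 CPM in the WT libraries against 462, 508 and 560 CPM in the ΔrsCBE ones. The groups covered nearly the same range. Gm27361, which overlaps the gene on the opposite strand, was not analysed here. The log2 fold change was -0.0076 with a 95% interval of -0.24 to 0.23 (adjusted p = 0.993, edgeR).

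Pik3cd (chromosome 4, 149649168 to 149702571, minus strand) measured 780, 772 and 743 CPM in the WT libraries against 849, 821 and 810 CPM in the ΔrsCBE ones. The libraries of each genotype lay close together and the groups were 29.2 CPM apart at their nearest. From means of 765 ± 19.8 and 826 ± 20.1 CPM (SD, n = 3) the log2 fold change was 0.11 ± 0.097 (SE; adjusted p = 0.774, edgeR).

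**Figure D3:**
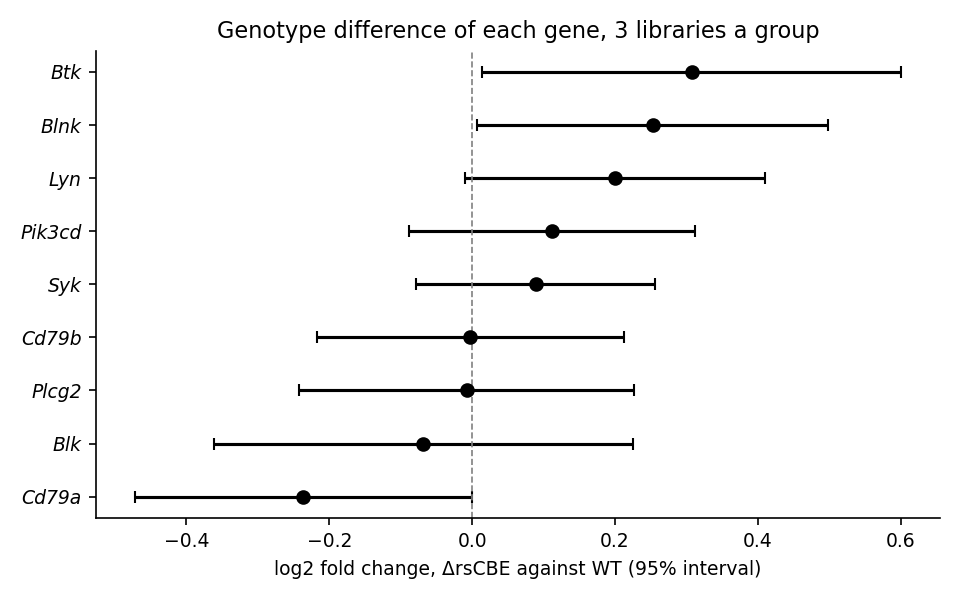
Log2 fold change of each gene, ΔrsCBE against WT, with its 95% interval from edgeR (3 libraries a group); the dashed line marks no difference. Point values run from -0.24 for Cd79a to 0.31 for Btk, and no interval extends beyond -0.47 or 0.60.

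Across the 9 genes, 5 had groups that did not overlap, all 5 with higher values in ΔrsCBE: Syk, Lyn, Btk, Blnk and Pik3cd. Among all tested genes 16.1% did not overlap, 7.23% with higher and 8.92% with lower values in ΔrsCBE. The median log2 fold change of the 9 genes was 0.089, against 0.011 for all tested genes. Groups that do not overlap place the male library, ΔrsCBE replicate 1, above all WT libraries for these 5 genes by definition. In that library Cd79a, Cd79b and Plcg2 lay within the WT range, and Blk, at 168 CPM, lay just below the lowest WT library at 169 CPM. The genotypes differed at the same time in division genes: 15 of 24 tested cell-cycle genes passed the threshold with lower values in ΔrsCBE. Of all tested genes, 1.49% did so. The median log2 fold change of these 24 was -1.045. The summed level of the list of 26 was 7070 to 7736 CPM in WT and 3015 to 4818 CPM in ΔrsCBE. Early response genes also moved: 3 of 12 tested genes passed the threshold with higher values in ΔrsCBE, against 0.205% of all tested genes. The median log2 fold change of these 12 was 0.58. Their list summed to 3357 to 3905 CPM in WT against 4465 to 6684 CPM in ΔrsCBE. The part of either in the values of the pre-BCR genes was not tested. The T and NK, erythroid and megakaryocyte lists each summed to 2.53 CPM or less in every library. Of the 11 myeloid markers, 1 was tested (Itgam, 47.2 to 83.4 CPM), Elane, Ly6g and S100a8 were at 0 in all libraries, and the list summed to 53.1 to 85.8 CPM in WT and 61.7 to 69.5 CPM in ΔrsCBE, most of it Itgam. Lyz2 (2, 4 and 2 counts) and S100a9 (2, 1 and 3 counts) had reads in each ΔrsCBE library and none in WT. Camp, Ngp and Mpo, with 3, 2 and 1 counts in all, also had reads in ΔrsCBE libraries alone. Csf1r and Ltf had reads in both genotypes. Csf1r had 4, 0 and 2 counts in WT and 1, 1 and 2 in ΔrsCBE. Ltf had 0, 1 and 0 counts in WT and 2, 0 and 0 in ΔrsCBE. The part of myeloid RNA in the values of the 9 genes was not tested.

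The genes differed widely in abundance. Divided by exon length, mean levels over the 6 libraries were 685 CPM per kilobase for Cd79a, 455 for Syk, 425 for Cd79b, 164 for Lyn, 127 for Pik3cd, 119 for Plcg2, 69.2 for Blk, 54.3 for Btk and 51.2 for Blnk. The median of the 7464 tested genes with a length was 11.4 CPM per kilobase, and at least 90.4% of them lay at or below each of the 9 genes. Cd79a, Syk and Cd79b ranked 14, 28 and 33 from the top. The lowest of these 3, Cd79b, exceeded Lyn, the next of the 9, by 2.60-fold in the means. In all 6 libraries Cd79a stood above Syk, Cd79b above Lyn, Lyn above Pik3cd, Plcg2 above Blk, and Blk above Btk. With all exons taken as the length, Syk and Cd79b, Pik3cd and Plcg2, and Btk and Blnk could not be ordered. The order of their means was seen in 5, 3 and 5 of 6 libraries, and their ranges overlapped. The ranges of Blk and Btk also overlapped. These positions depend on the length used. The exons of Syk together span 9362 bases, and with its longest transcript of 5363 bases its level was 795 CPM per kilobase, above that of Cd79a. The levels of Lyn, Pik3cd, Blk, Btk and Blnk also changed with that length and are given at the end.

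**Figure D4:**
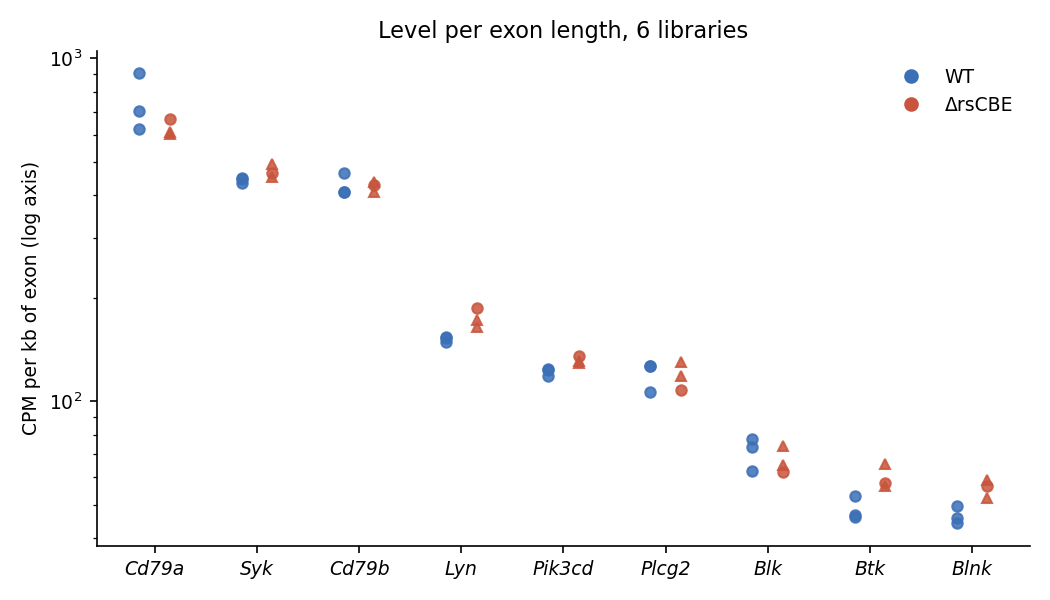
Level of each gene in CPM per kilobase of exon (log axis) in the 6 libraries; blue is WT, red ΔrsCBE, triangles are libraries of female pattern. The means fall from 685 for Cd79a to 51.2 for Blnk, with a step between Cd79b (425) and Lyn (164).

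Most of these genes belong to families, and the paralogs showed which member the cells expressed most. In each comparison of levels per kilobase the gene studied was the highest of its family in 6 of 6 libraries: Syk against Zap70, Btk against Tec and Bmx, Plcg2 against Plcg1, Pik3cd against the other class I catalytic subunits, and Lyn among 7 Src family kinases. Zap70, the T-cell counterpart of Syk, had 1 count in all, and Bmx had 0. Lyn took 48.9% to 59.5% of the summed Src family level and Blk 17.6% to 25.9%, while Fyn took 1.70% to 4.02%. Pik3cd made up 62.9% to 67.7% of the class I catalytic level, Pik3cg 19.5% to 24.6% and Pik3ca 10.6% to 13.1%, while Pik3cb had 13 counts in all. Btk took 60.9% to 77.8% of the Tec family level, the rest being Tec. These shares rest on levels divided by exon length, so their size depends on the annotation.

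The wider pathway was read from lists of 112 further genes, of which 85 were tested. Only Klf2 passed the threshold, and it rose in ΔrsCBE. By direction, 56 of the 85 had a log2 fold change above 0 (65.9%, against 51.8% of all tested genes) and the median was 0.058. Groups did not overlap for 15 genes (17.6%, near the 16.1% of all tested genes), 14 of them (16.5% of the 85, against 7.23% of all tested genes) with higher values in ΔrsCBE. An unadjusted p-value under 0.05 was reached by 8 genes (9.41%), a share near the 10.2% of all tested genes in either direction. All 8 had higher values in ΔrsCBE, the direction of 4.22% of all tested genes.

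**Figure D5:**
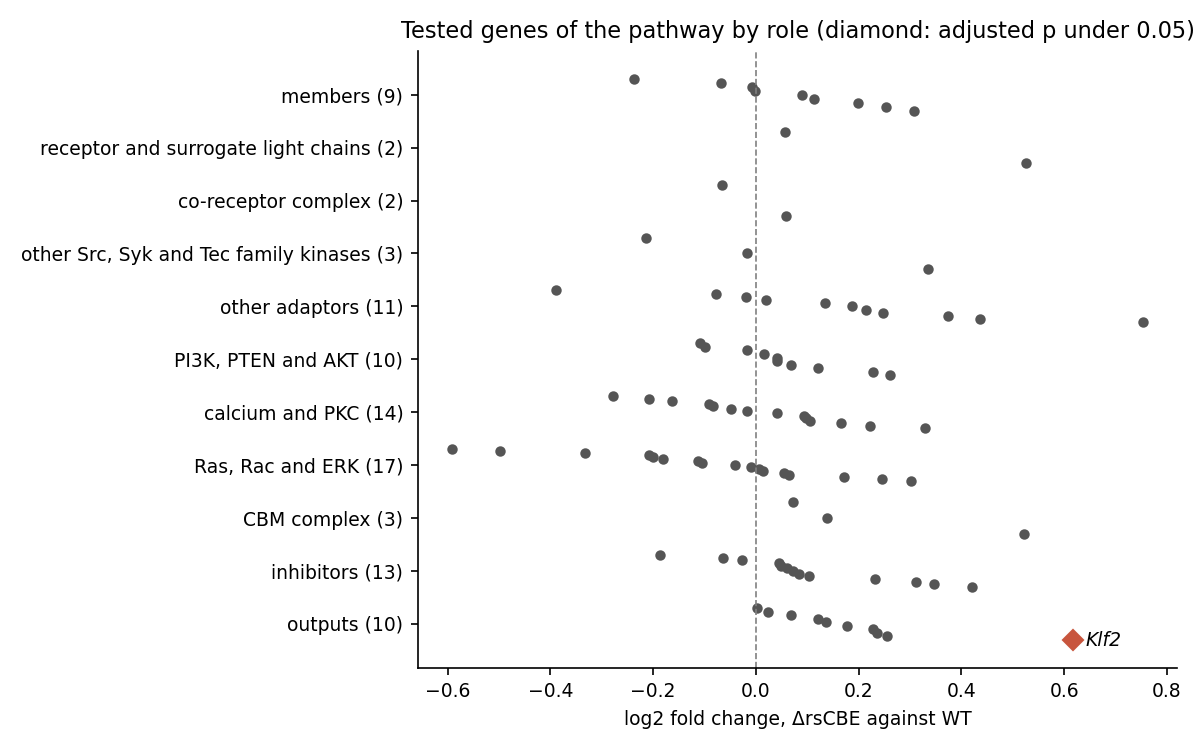
Log2 fold change of the 9 pre-BCR genes (top row) and of the 85 tested genes of the wider pathway by role, with the number tested in brackets; the diamond marks the gene past the threshold. Klf2 at 0.62 is that gene, and the row of pathway outputs has all 10 values above 0.

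Klf2, a transcription factor linked to quiescence and lymphocyte homing and listed here as an output of the pathway, had 238, 248 and 259 CPM in WT and 329, 402 and 416 CPM in ΔrsCBE. All ΔrsCBE libraries were higher than all WT libraries, and the male one was the lowest of the 3. It rose from 248 ± 10.2 to 382 ± 46.4 CPM (SD, n = 3), a log2 fold change of 0.62 ± 0.12 (SE; adjusted p = 0.00533, edgeR). The call was lost without ΔrsCBE replicate 3 (0.55, adjusted p = 0.0755, edgeR). With library sex as a covariate the log2 fold change was 0.40. Both female libraries are ΔrsCBE, so the genotype difference in that fit comes from 1 ΔrsCBE library against 3. It cannot separate sex from genotype in the female libraries. The male libraries alone, which give the same contrast, were also at 0.40. The cell-cycle list was lower in every ΔrsCBE library than in WT, at 3342, 4818 and 3015 CPM, and its part in the rise of Klf2 was not tested. The other outputs include Foxo1, which promotes recombinase expression and is switched off by AKT, and Irf4, which promotes light chain rearrangement. Foxo1 had a log2 fold change of 0.18 and Irf4 one of 0.068, neither past the threshold (adjusted p = 0.638 and 0.896, edgeR).

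Upstream of the kinases, the surrogate light chain genes were close to absent. Igll1 had 10 and Vpreb1 7 counts over all 6 libraries, below the count filter. Vpreb2 and Ighm are listed at 0 in each library, so no change in these 4 genes could be tested. Why Ighm is at 0 was not tested. The annotation used for counting is not given, so this 0 cannot be read as absence of its RNA. Vpreb3 was tested and had 61.7, 113 and 79.2 CPM in WT and 82.3, 122 and 149 CPM in ΔrsCBE, overlapping groups with a log2 fold change of 0.53 (adjusted p = 0.354, edgeR). Among the co-receptors, Cd81, a tetraspanin of the co-receptor complex, had a log2 fold change of -0.066, and Ptprc, the phosphatase CD45 that activates Src family kinases, had one of 0.056. For these genes edgeR gave adjusted p-values of 0.974 and 0.916. Fyn and Tec had log2 fold changes of -0.018 and -0.21, at adjusted p-values (edgeR) of 0.994 and 0.785.

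None of the 13 tested inhibitors of the pathway passed the threshold. An unadjusted p-value under 0.05 (edgeR) was reached by 3 of the 13 (23.1%, against 10.2% of all tested genes). These 3 were among the 6 genes of the wider list with the smallest p-values. Dok3, an adaptor that restrains Btk-dependent calcium signalling, had 370, 338 and 382 CPM in WT and 431, 481 and 482 CPM in ΔrsCBE, with no overlap and a log2 fold change of 0.35 (SE 0.11; adjusted p = 0.150, edgeR). Ptpn6, the phosphatase SHP-1, had 213, 257 and 223 CPM in WT and 249, 339 and 331 CPM in ΔrsCBE. Its male ΔrsCBE library lay within the WT range, and the log2 fold change was 0.42 (SE 0.14; adjusted p = 0.153, edgeR). Cd72, an inhibitory receptor that recruits SHP-1, had 626, 527 and 591 CPM in WT and 628, 736 and 807 CPM in ΔrsCBE, with a log2 fold change of 0.31 (SE 0.11; adjusted p = 0.233, edgeR). Its male ΔrsCBE library was likewise level with the highest WT library. Without that library, where the ΔrsCBE group is female only, Ptpn6 and Cd72 passed the threshold at 0.55 and 0.40 (adjusted p = 0.0148 and 0.0401, edgeR). With library sex as a covariate they were at 0.13 and 0.11, a difference that comes from the male ΔrsCBE library alone against WT. The lipid phosphatase gene Inpp5d (SHIP-1) had a log2 fold change of 0.083 and Cd22, a further inhibitory receptor, one of -0.19 (adjusted p = 0.892 and 0.721, edgeR).

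Downstream of the receptor, the median log2 fold change of the 10 tested genes of the lipid kinase group was 0.041. Its regulatory subunit gene Pik3r1, the partner of Pik3cd, had 469, 520 and 501 CPM in WT and 497, 621 and 664 CPM in ΔrsCBE. The male ΔrsCBE library was again inside the WT range, and the log2 fold change was 0.26 (adjusted p = 0.417, edgeR). With library sex as a covariate, which leaves that male library alone against WT, it was 0.0045. Pik3ap1, the adaptor BCAP that links the receptor to the lipid kinase, had 1665, 1697 and 1734 CPM in WT and 1992, 1891 and 2027 CPM in ΔrsCBE, separate groups with a log2 fold change of 0.21 (SE 0.088; adjusted p = 0.350, edgeR). The adaptors Grb2 and Dapp1 had log2 fold changes of 0.19 and 0.019, at adjusted p-values (edgeR) of 0.818 and 0.988. Vav1, an exchange factor for Rac, also had separate groups, with 292, 304 and 299 CPM in WT and 352, 384 and 365 CPM in ΔrsCBE and a log2 fold change of 0.30 (SE 0.12; adjusted p = 0.283, edgeR). Rasgrp3, which links diacylglycerol to Ras, was weakly expressed at 9.30 to 29.2 CPM and had a log2 fold change of -0.50 ± 0.37 (SE; adjusted p = 0.722, edgeR). In the calcium group 14 genes were tested, 7 above and 7 below 0, with Prkcb, the protein kinase C isoform that signals to NF-kB, at -0.091 and the calcium channel gene Itpr1 at 0.11 (adjusted p = 0.820 and 0.904, edgeR).

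Spread within a genotype differed between the 9 genes. The coefficient of variation of Cd79a in WT was 19.6%, against 3.79% expected from counting alone, while in ΔrsCBE it was 5.54% against 3.58%. Plcg2 varied by 9.65% and 9.52% in WT and ΔrsCBE, with 5.54% and 4.80% from counting. In WT the spread of all 5 genes with groups that did not overlap was below the counting value: 1.63% against 5.12% for Lyn, 1.71% against 1.98% for Syk, 2.59% against 4.59% for Pik3cd, 6.12% against 7.69% for Blnk and 8.16% against 10.3% for Btk. In ΔrsCBE this held for Pik3cd (2.43% against 3.76%) and Cd79b (3.30% against 4.40%). SDs below the counting value understate the uncertainty of these genes. Summed over the 9 genes the level was 8230, 8705 and 8117 CPM in WT and 8680, 8426 and 8895 CPM in ΔrsCBE, with overlapping ranges and Syk as the largest part. As a description over 6 libraries, the genes outside all lists whose log2 CPM followed the mean deviation of the 9 genes most closely were Chd2, Gstp-ps, Eif3g, Csf2ra and Rbak, with Pearson's r of 0.992 to 0.967. With so few libraries 46 genes reached an r of 0.9.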

How the data were processed

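The deposited table holds raw read counts per gene symbol, 1 column for each of 6 libraries, which the authors did not normalize, as its whole numbers and unequal totals show; whether a library pools animals or runs is not given in the sources used here. The library kit keeps the strand of total RNA, per the labels' protocols. Trim Galore 0.6.10, STAR 2.7.11, HTSeq and DESeq2 and the mm10 build are named in the submitters' processing notes, without their settings; the annotation and the strand setting of counting are not given in the sources used here, so reads of overlapping genes may not be separated. Coordinates and exon lengths come from GENCODE M21 on GRCm38, the same assembly as mm10.

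Counts were tested with edgeR 4.0.16 in R 4.3.3: filterByExpr with a minimum count of 10, TMM scaling, a robust quasi-likelihood fit with genotype as the factor, and Benjamini-Hochberg adjustment over all 7792 genes tested. The fit was tested on simulated data. Standard errors come from the F statistic and 95% intervals from the t distribution. DESeq2 1.42.0 served as an alternative. Log2 CPM for the likeness of patterns used a prior count of 2.

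The 9 genes, the pathway and marker lists and the tests were chosen with earlier results of these data known. By the rule for naming, the text names the 9 genes, each pathway gene past the threshold, the 6 with the smallest p-values and those of 22 fixed anchors that are reported here; Vpreb3 and the paralogs were named after their values were seen. Some genes of the lists are not reported here. Replicate numbers are shared between genotypes but did not pair the libraries.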

Additional observations from a re-analysis of the deposited data

How the results depend on the processing

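With 428106 to 1300805 counts per library and 3 libraries a genotype, small differences in these genes are not resolved. In each of the 17 alternatives 0 of the 9 genes passed the threshold, and the log2 fold changes of Blnk, Btk, Syk, Lyn, Pik3cd and Cd79a kept their sign. The sex covariate lowered the 132 genes called overall to 87 and the 1 wider pathway gene to 0; leaving out single libraries gave 59 to 187 genes (59 without WT replicate 3 and 59 without ΔrsCBE replicate 3) and 0 to 3 pathway genes. The cause was not tested.

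The sign of genes near 0 was not stable. Cd79b was at 0.0083 with library size alone, 0.010 without a count filter, 0.020 with a filter of 1 CPM in 3 libraries, 0.0080 with the sex covariate and 0.0098 in male libraries; Plcg2 was at 0.0018, 0.0051 and 0.015 in the first 3 of these. With the sex covariate and in male libraries, which rest on the same contrast, Cd81 was at 0.016 and 0.018, Dapp1 at -0.18 and -0.18 and Rasgrp3 at 0.021 and 0.022. Fyn was at 0.034 with DESeq2 and 0.096 with the replicate block. Leaving out single libraries gave -0.033 to 0.061 for Cd79b, -0.17 to 0.0037 for Blk, -0.091 to 0.059 for Plcg2, -0.17 to 0.088 for Cd81, -0.22 to 0.49 for Fyn, -0.041 to 0.10 for Dapp1, -0.011 to 0.22 for Itpr1, -0.019 to 0.15 for Inpp5d and -0.037 to 0.17 for Irf4.

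Same-numbered libraries did not deviate together (correlations of 0.013, 0.020 and 0.0091; 1 of 6 libraries correlated best with its own number). The replicate block gave 136 genes in all, 0 of the 9 and 1 pathway gene. With the longest transcript as length, levels per kilobase became 67.6 for Blnk, 67.3 for Btk, 795 for Syk, 192 for Lyn, 80.3 for Blk and 162 for Pik3cd.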
